A study of Sus scrofa with 6 samples.

Results

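The miRNAs miR-22, miR-26a and miR-101 were followed in cultured pig immature Sertoli cells given a vitamin C derivative. They were chosen by name, because each is known from human or mouse work to repress transcripts of the TET enzymes, for which ascorbate is a cofactor. The rule found 4 of the 1645 entries of the deposited table: miR-22-3p, miR-22-5p, miR-26a and miR-101. The 3 libraries of treated cells came from cells given L-ascorbic acid 2-phosphate (AA2P), a stable form of vitamin C, at 250 µM. The 3 control libraries came from untreated cells. Both groups were immature Sertoli cells, the nurse cells of the seminiferous epithelium, from pig (Sus scrofa) testes at 80 to 90 days of gestation, cultured for 6 h in medium with 10% fetal bovine serum before the treatment. The length of the treatment, the breed and the number of animals were not given. The labels leave it unsaid whether replicates were separate cultures or animals, and the p-values below cover the spread between these libraries only, which may be technical.

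A miRNA is cut from a hairpin precursor whose arms give a 5p and a 3p product. The product loaded into an Argonaute protein pairs with messenger RNAs through its seed, near its 5′ end, and lowers their translation and stability. TET1, TET2 and TET3 are dioxygenases that oxidise 5-methylcytosine in DNA to 5-hydroxymethylcytosine and beyond, which is a route to demethylation. Ascorbate keeps their iron in the reduced state. In human and mouse cells, miR-22 is known to repress TET2. miR-26a is known to repress TET transcripts and TDG, the glycosylase that removes the oxidised bases, and also EZH2, the histone methyltransferase of Polycomb complex PRC2. miR-101 is known to repress TET2 and is better known as a repressor of EZH2. These roles were not measured here: the libraries held small RNA, so neither TET transcripts nor DNA methylation could be read from them. In the pig RefSeq table (assembly Sscrofa11.1), MIR26A lies within the span of CTDSP2, a phosphatase gene. miR-101 has 2 genes, MIR101-1 within the span of RCL1 and MIR101-2 within that of JAK1. The entry miR-101 therefore cannot be assigned to either gene. The names miR-26a and miR-101 carry no arm in the table, and miR-22 was the only one of the 3 listed with both arms.

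Values are TPM, counts that the authors scaled to a common total per library. The steps between low values put the depth at 26.9 to 36.0 Mreads (counted reads, M for mega) in AA2P libraries and at 25.8 to 32.2 Mreads in control libraries. The dominant entry, miR-21-5p, took 37.0 to 44.1% of the TPM in AA2P libraries and 51.3 to 53.0% in control libraries, so the share left for all other entries differed between the groups. Markers of other cell types were read from the same libraries, since no miRNA defines Sertoli cells. The 5 muscle and myoid miRNAs summed to 219 to 306 TPM in AA2P and 167 to 227 TPM in control libraries. Of these, 4 were tested and none called. miR-1, most of the sum, stood at 225 ± 41.4 TPM with AA2P and 153 ± 24.1 TPM in controls (SD, n = 3 each), without overlap (limma, adjusted p = 0.0746). miR-206, not tested, stood at 0.40 to 0.47 TPM in AA2P and 0.03 to 0.31 TPM in control libraries. The others overlapped between the groups. Of all entries tested, 49.7% did not overlap. The 6 blood and endothelial miRNAs summed to 87.3 to 119 TPM in AA2P and 97.6 to 109.7 TPM in control libraries. Of these, miR-142-3p stood at 1.98 ± 0.627 TPM with AA2P and at 0.507 ± 0.0802 TPM in controls (SD, n = 3 each; limma, adjusted p = 0.0293). It reached the 1 TPM needed for testing in the AA2P libraries only (1.47 to 2.68 TPM, against 0.43 to 0.59 TPM in controls). Its entry into the test thus came from the group where it was high, so no support is drawn from this call. miR-126-3p, an endothelial miRNA that made up most of the sum, stood at 96.4 ± 12.2 TPM with AA2P and 101.5 ± 6.50 TPM in controls and did not pass (limma, adjusted p = 0.615). miR-223, a myeloid miRNA, stood at 5.40 TPM in AA2P replicate 1, the library highest for both arms of miR-22, and at no more than 0.06 TPM in the other libraries. miR-142-5p, the other arm of the miR-142 hairpin, was not tested. It stood at 0.72 to 2.08 TPM in AA2P and 0.34 to 0.56 TPM in control libraries, without overlap. Over all 6 libraries miR-144 stood at 0 to 0.06 TPM and miR-451 at 0.31 to 1.11 TPM, with overlapping groups. Of 4 germ cell miRNAs sought, 2 were listed, miR-34c and miR-371-5p, and miR-449a and miR-302 had no entry. The 2 summed to 213 to 283 TPM in AA2P and 169 to 183 TPM in control libraries. Nearly all of this was miR-34c, which rose (limma, adjusted p = 0.0464), while miR-371-5p stood at 0 to 0.11 TPM and was not tested. The calls of miR-142-3p and miR-34c ended when AA2P replicate 1, AA2P replicate 3 or any 1 control library was left out (limma, adjusted p = 0.0635 to 0.129). The miR-34c call also ended under all 5 other scalings, at log2 fold changes of 0.14 to 0.32 against 0.43 as deposited (limma, adjusted p = 0.0783 to 0.560), and the miR-142-3p call under quantile normalization and without miR-21-5p in the totals (0.0647 and 0.0643). No listed marker was at 0 in all libraries. Their part in the results below was not tested. In bulk samples, fewer cells of a type and less RNA per cell cannot be told apart.

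The 3 miRNAs differed widely in TPM, in an order that was the same in all 6 libraries. miR-26a was the most abundant, at 0.960% of the TPM with AA2P and 0.806% in controls, and held rank 15 of all entries by mean TPM. miR-101 held rank 48 and miR-22-3p rank 86, and miR-22-5p, the lesser arm, held rank 195. The ranges of the 4 entries over the 6 libraries did not overlap one another. In the whole table some neighbours in rank did not differ from them beyond their spread. miR-26a (7291 to 11023 TPM) overlapped miR-30c-5p, next above it, at 6210 to 13291 TPM, and miR-182, next below it, at 5681 to 7503 TPM. By the same measure miR-101 (1537 to 2237 TPM) lay between miR-30e-5p at 1125 to 2760.2 TPM and miR-139-5p at 1599 to 1866 TPM, and miR-22-5p (25.45 to 46.1 TPM) between miR-130a at 27.9 to 47.2 TPM and miR-21-3p at 24.7 to 42.9 TPM. All 4 entries rested on many reads: 737 to 1519 for miR-22-5p, 9307 to 20633 for miR-22-3p, 42920.1 to 60123 for miR-101 and 232967 to 396543 for miR-26a. Counting error was small at these depths, and the spread between libraries was the larger error.

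Both arms of miR-22 rose with AA2P in the deposited TPM, while miR-26a and miR-101 did not pass the test. miR-22-3p was 1.58-fold and miR-22-5p 1.51-fold the control level. The ratio of means was 1.19 for miR-26a and 1.12 for miR-101. Of the 4 entries, 2 were called higher and 0 lower by limma at an adjusted p of 0.05. Of all 433 entries tested, 19.9% were called higher and 4.85% lower (24.7% in all), and 49.7% had groups that did not overlap in TPM, as 2 of the 4 did. A rise or a gap between the groups was thus common in these libraries, and the 2 calls for miR-22, which come from 1 hairpin, are read against that background.

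miR-22-3p, the main arm and the one known to repress TET2, stood at 649, 574 and 445 TPM in AA2P replicates 1, 2 and 3, against 377, 372 and 307 TPM in control replicates 1, 2 and 3. The 3 AA2P libraries all lay above the highest control library, and AA2P replicate 3 was the nearest to the controls. The means were 556 ± 103 TPM with AA2P and 352 ± 39.0 TPM in controls (SD, n = 3 each). On the log2(TPM + 1) scale the fold change was 0.65 (SE 0.162, 95% interval 0.25 to 1.04; limma, adjusted p = 0.0319). On the TPM themselves, a two-sided exact permutation test came to p = 0.1, and 3 against 3 libraries allow no smaller value. In rank, 75 of the 433 tested entries (17.3%) had a higher fold change.

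miR-22-5p, the other arm of the same hairpin, stood at 46.1, 42.2 and 37.7 TPM in AA2P replicates 1, 2 and 3, against 28.5, 29.4 and 25.45 TPM in control replicates 1, 2 and 3. As for the 3p arm, no AA2P library reached down to the controls, AA2P replicate 1 was the highest and control replicate 3 the lowest. The means were 42.0 ± 4.22 TPM with AA2P and 27.8 ± 2.06 TPM in controls (SD, n = 3 each). The log2 fold change was 0.58 (SE 0.112, 95% interval 0.30 to 0.85; limma, adjusted p = 0.0138; two-sided exact permutation p = 0.1). The spread between libraries was smaller for this arm, with a coefficient of variation of 10.0% in AA2P and 7.43% in control libraries, where the 3p arm had 18.6% in AA2P and 11.1% in control libraries.

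The use of the 2 arms of miR-22 was compared within libraries, where a scaling factor of the library cancels. The 5p arm made up 6.63, 6.86 and 7.81% of the hairpin's TPM in AA2P libraries and 7.04, 7.32 and 7.66% in control libraries, so the groups overlapped. The log2 ratio of 5p to 3p was -3.68 ± 0.137 with AA2P and -3.61 ± 0.0680 in controls (SD, n = 3 each). The difference was -0.070 (SE 0.132, 95% interval -0.36 to 0.22; limma over 39 hairpins, adjusted p = 0.859). Over those 39 hairpins limma called 0 (0%), and 4 had an unadjusted p under 0.05. Arm shifts within the interval given are compatible with these values, so an unchanged arm use is not shown.

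miR-26a, the most abundant of the 3 and a repressor of both TET and EZH2 transcripts in human and mouse cells, stood at 9233, 11023 and 8532 TPM in AA2P replicates 1, 2 and 3, against 9019.8, 7291 and 7880.2 TPM in control replicates 1, 2 and 3. The groups overlapped, with AA2P replicate 3 under the highest control library. The means were 9596 ± 1285 TPM with AA2P and 8064 ± 879 TPM in controls (SD, n = 3 each). The log2 fold change was 0.25 (SE 0.126, 95% interval -0.058 to 0.55; limma, adjusted p = 0.191; two-sided exact permutation p = 0.2), the same to 2 decimals as the median of all tested entries, 0.25.

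miR-101, a repressor of TET2 and EZH2 in human and mouse cells, stood at 2237, 1537 and 1792 TPM in AA2P replicates 1, 2 and 3, against 1662, 1595 and 1731 TPM in control replicates 1, 2 and 3. The AA2P libraries lay on both sides of the controls, and the highest and the lowest of the 6 values were both from AA2P libraries. The means were 1855 ± 355 TPM with AA2P and 1663 ± 68.1 TPM in controls (SD, n = 3 each), so the spread was wider with AA2P, at a coefficient of variation of 19.1% in AA2P and 4.10% in control libraries. The log2 fold change was 0.14 (SE 0.141, 95% interval -0.20 to 0.49; limma, adjusted p = 0.483; two-sided exact permutation p = 0.5). Without AA2P replicate 1 it was -0.0020, and without AA2P replicate 2 it was 0.27. Neither interval shows that miR-26a or miR-101 was unaffected: changes within the bounds given are compatible with these values.

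**Figure D1:**
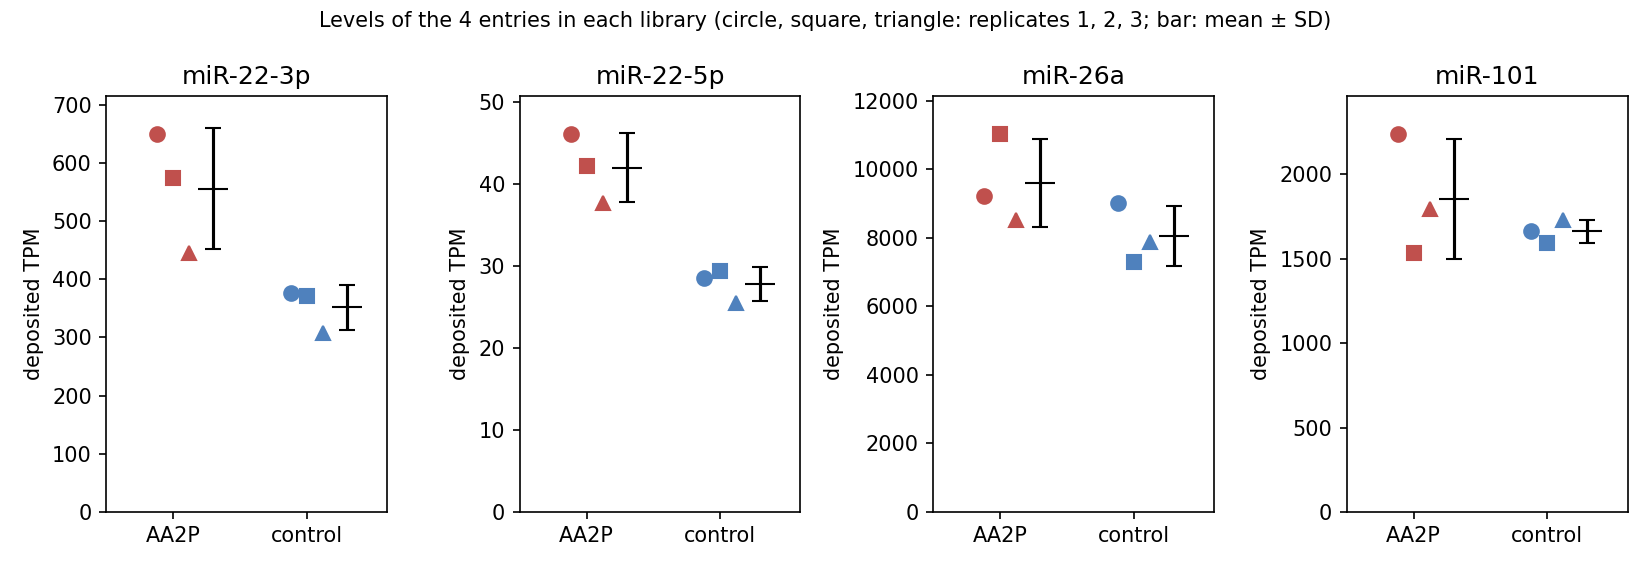
Deposited TPM (vertical axes, starting at 0) of miR-22-3p, miR-22-5p, miR-26a and miR-101 in each AA2P and control library; circle, square and triangle are replicates 1, 2 and 3, and bars are mean ± SD (n = 3). The AA2P libraries lie above all control libraries for both arms of miR-22 (445 to 649 against 307 to 377 TPM for the 3p arm), while the groups overlap for miR-26a and miR-101.

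The 4 entries together took 12166, 13176 and 10806 TPM in AA2P replicates 1, 2 and 3, against 11087, 9287 and 9944 TPM in control replicates 1, 2 and 3, and these sums overlapped. miR-26a made up most of each sum, with 79.5% ± 3.91 in AA2P and 79.7% ± 1.48 in control libraries (SD, n = 3 each). miR-101 made up 15.5% ± 3.48 with AA2P and 16.5% ± 1.34 in controls, and miR-22-3p 4.60% ± 0.648 with AA2P and 3.50% ± 0.468 in controls. The summed TPM was thus mainly miR-26a in every library, and miR-22, whose 2 arms rose, was a small part of it. Whether TPM of different miRNAs give their relative amounts in the cells was not tested.

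The size of the miR-22 rise depended on how the libraries were scaled. The median change over the tested entries was 0.25 on the log2 scale in the deposited TPM, and 5 other scalings moved it by -0.18 to -0.26. Relative to the median in the deposited TPM, miR-22-3p was higher by 0.40, miR-22-5p higher by 0.33, miR-101 at -0.11, and miR-26a equal to it at 2 decimals. Under the 5 other scalings the log2 fold change of miR-22-3p was 0.35 to 0.45 and none passed (limma, adjusted p = 0.0806 to 0.187). That of miR-22-5p was 0.27 to 0.39 and 1 passed, with the 10 most abundant entries left out of the totals (limma, adjusted p = 0.0493; 0.0653 to 0.165 under the others). Of all tested entries, 11.1% were called higher with trimmed-mean and with median-of-ratios scaling, 10.2% with quantile normalization, 9.01% without miR-21-5p in the totals and 12.7% without the 10 most abundant. The groups of miR-22-3p did not overlap under any of the 5, as was true of 40.2, 40.6, 37, 39 and 40.2% of all tested entries in the same order of scalings. Those of miR-22-5p did not overlap under 4 of 5. miR-26a turned lower with AA2P under 4 of the 5 (-0.23 to -0.023), and miR-101 under all 5 (-0.18 to -0.054), with no call (limma, adjusted p = 0.208 to 0.903 for miR-26a and 0.492 to 0.818 for miR-101). No direction can therefore be given for these 2 miRNAs. The miR-22-3p call also ended when any 1 library other than AA2P replicate 3 was left out (limma, adjusted p = 0.0687 to 0.1003), and the miR-22-5p call without control replicate 3 (limma, adjusted p = 0.0598).

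**Figure D2:**
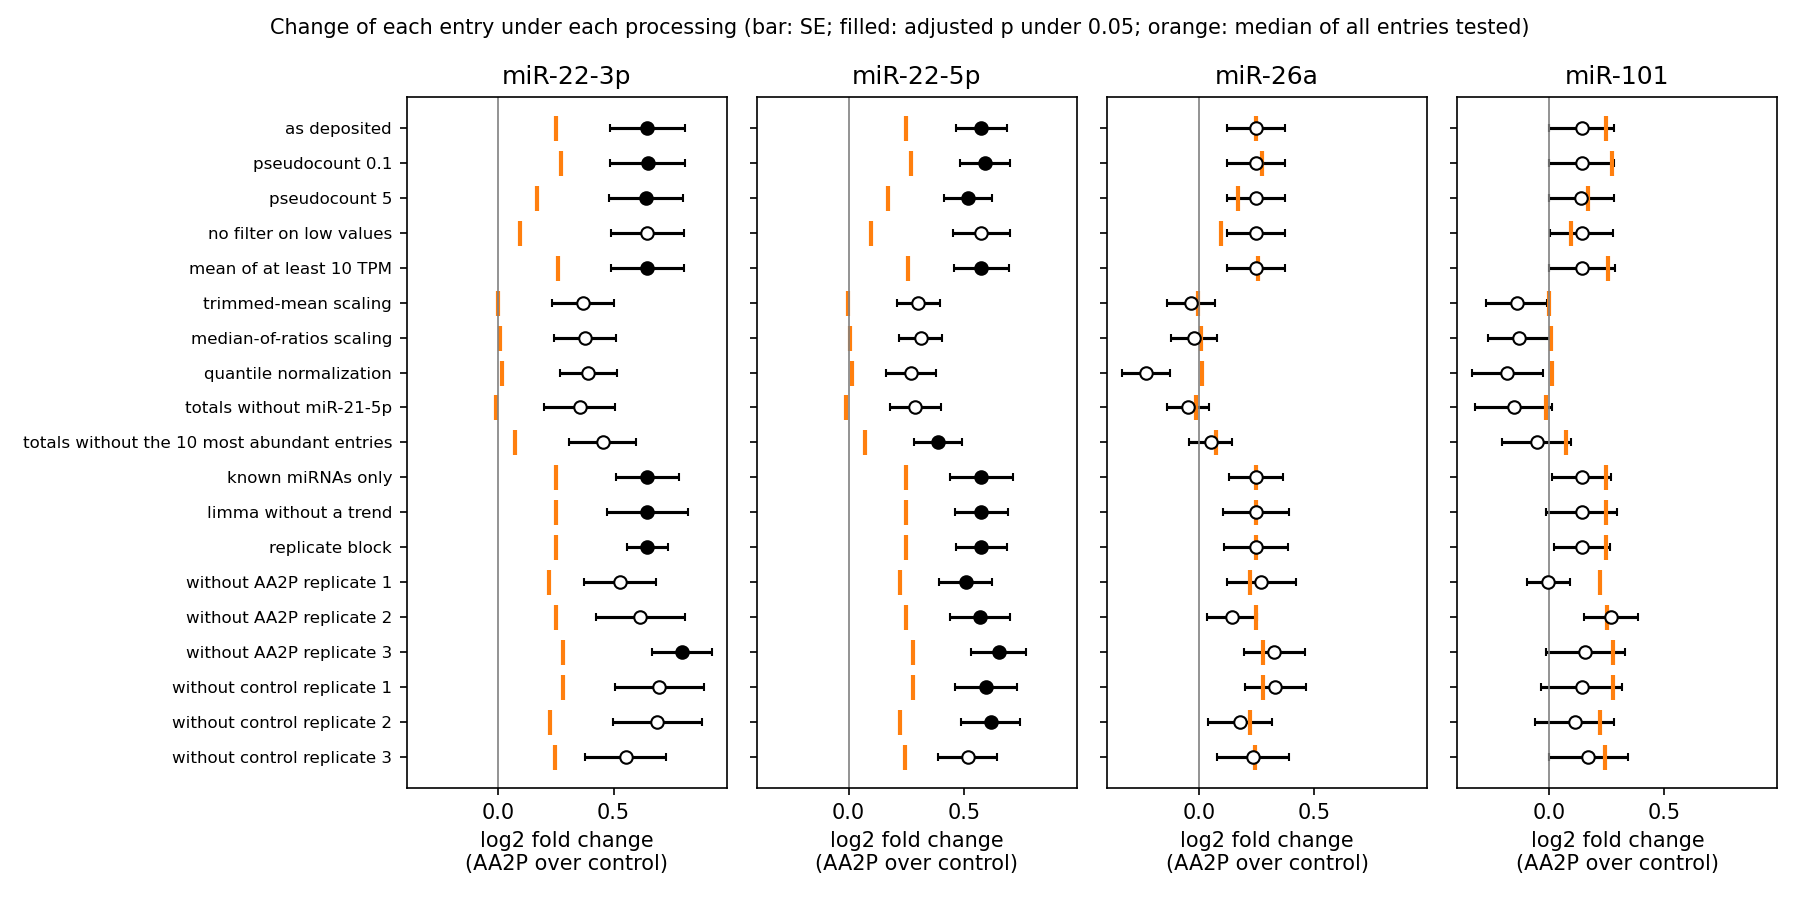
Log2 fold change of AA2P over control (horizontal axes) for the 4 entries under each processing; points with bars are the estimate ± SE, filled where limma's adjusted p was under 0.05, and orange marks are the median of all entries tested. The miR-22 points lie right of the median throughout, while miR-26a crosses 0 under 4 of 5 other scalings and miR-101 under all 5.

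Ratios of 2 miRNAs within a library do not change when the library is divided by 1 factor, which holds for all scalings used but quantile normalization. These ratios were added after the values were seen. The TPM of miR-26a was 14.2, 19.2 and 19.2 times that of miR-22-3p in AA2P replicates 1, 2 and 3, against 24.0, 19.6 and 25.7 times in control replicates 1, 2 and 3. The log2 ratio of miR-22-3p to miR-26a averaged -4.12 ± 0.250 with AA2P and -4.52 ± 0.202 in controls, a difference of 0.40. The groups did not overlap, but by a narrow gap, from -4.26 in the lowest AA2P library to -4.29 in the highest control library. The log2 ratio of miR-22-3p to miR-101 averaged -1.74 ± 0.297 with AA2P and -2.25 ± 0.218 in controls, a difference of 0.51, again with no overlap. Both reached a two-sided exact permutation p = 0.1, the smallest possible for 3 against 3 libraries, and an adjusted p of 0.2 over the 4 ratios compared, so neither passed. The ratio of miR-26a to miR-101 was 4.13, 7.17 and 4.76 in AA2P replicates 1, 2 and 3, against 5.43, 4.57 and 4.55 in control replicates 1, 2 and 3. Its log2 value differed by 0.11 with overlapping groups (two-sided exact permutation p = 0.8, 0.8 adjusted), and AA2P replicate 2 stood apart as the library with the most miR-26a and the least miR-101.

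**Figure D3:**
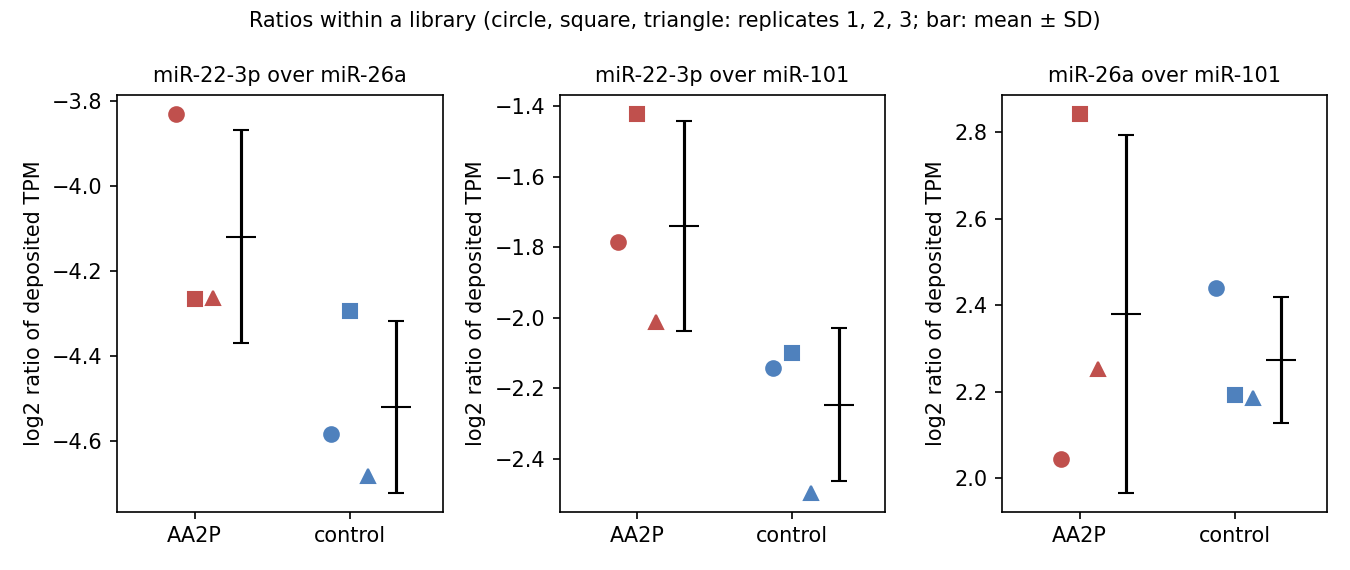
Log2 ratios of the deposited TPM (vertical axes, not starting at 0) of miR-22-3p over miR-26a, miR-22-3p over miR-101 and miR-26a over miR-101 in AA2P and control libraries; circle, square and triangle are replicates 1, 2 and 3, and bars are mean ± SD (n = 3). Both ratios with miR-22-3p lie higher in the AA2P libraries without overlap, with means of -4.12 against -4.52 and of -1.74 against -2.25, and the ratio of miR-26a to miR-101 overlaps.

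miR-26b-5p, which shares the seed of miR-26a, was measured beside it. It stood at 1686, 1867 and 1624 TPM in AA2P replicates 1, 2 and 3, against 1421, 1246 and 1484 TPM in control replicates 1, 2 and 3. The groups did not overlap, but its log2 fold change of 0.32 (SE 0.0959) did not pass (limma, adjusted p = 0.0577), and the groups overlapped under all 5 other scalings. The log2 ratio of miR-26a to miR-26b-5p averaged 2.47 ± 0.0854 with AA2P and 2.54 ± 0.129 in controls, a difference of -0.072 with overlapping groups (two-sided exact permutation p = 0.5, 0.667 adjusted over the 4 ratios). How the authors assigned reads that fit both members was not given in the sources used here, so each is less certain than their sum.

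Other miRNAs known from human or mouse work to repress TET transcripts moved in both directions. Of 7 in the list, 6 were listed and tested, and miR-494 had no entry. By limma 1 rose and 2 fell, with a median log2 fold change of -0.19, beside 0.25 for all tested entries. Both that fell, miR-29a-3p and miR-29b, are of 1 family, which also holds miR-29c, so they are not independent entries. Of all tested entries, 19.9% were called higher and 4.85% lower, and 49.7% had groups that did not overlap. miR-7-5p, a miRNA abundant in endocrine and neural cells, stood at 13638, 17465 and 15122 TPM in AA2P replicates 1, 2 and 3, against 8715, 9489 and 11188 TPM in control replicates 1, 2 and 3, which was more TPM than miR-26a in all 6 libraries but control replicate 1. The AA2P libraries all lay above the controls, and the log2 fold change was 0.65 (SE 0.130; limma, adjusted p = 0.0156). This call ended under 4 of 5 other scalings (limma, adjusted p = 0.0549 to 0.145) and without control replicate 2 (limma, adjusted p = 0.0579).

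The miR-29 family, which in human and mouse cells represses TET transcripts, TDG and also the methyltransferases DNMT3A and DNMT3B, went the other way. miR-29a-3p fell to 1221, 1202 and 1248 TPM in AA2P replicates 1, 2 and 3, against 1734, 1456 and 1726 TPM in control replicates 1, 2 and 3 (log2 fold change -0.42, SE 0.0881; limma, adjusted p = 0.0183). miR-29b fell to 15.4 ± 3.16 TPM with AA2P, against 24.1 ± 1.26 TPM in controls (SD, n = 3 each; limma, adjusted p = 0.0313). For both, the groups did not overlap and the call held under all 5 other scalings, which lowered the median of all entries. Under those, 11.5% of all tested entries were called lower with trimmed-mean and with median-of-ratios scaling, 9.24% with quantile normalization, 9.93% without miR-21-5p and 8.31% without the 10 most abundant. The miR-29a-3p call ended without AA2P replicate 1, control replicate 1 or control replicate 3 (limma, adjusted p = 0.0520 to 0.0740), and the miR-29b call without AA2P replicate 1 or any 1 control library (limma, adjusted p = 0.0722 to 0.1003). With no filter on low values both calls ended (limma, adjusted p = 0.0609 for miR-29a-3p and 0.135 for miR-29b). The miR-29b call also ended with the replicate number as a block (limma, adjusted p = 0.0746). miR-29c stood at 3.35 ± 0.414 TPM with AA2P and 4.43 ± 0.192 TPM in controls and did not pass (limma, adjusted p = 0.147), though it was called lower under 4 of 5 other scalings. The remaining members did not pass either. miR-15b stood at 246 ± 22.4 TPM with AA2P and 198 ± 22.9 TPM in controls (limma, adjusted p = 0.0984). Its groups did not overlap as deposited but did under all 5 other scalings. miR-125b stood at 3123 ± 192 TPM with AA2P and 3256 ± 270.9 TPM in controls (limma, adjusted p = 0.626), and was called lower under 4 of 5 other scalings.

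**Figure D4:**
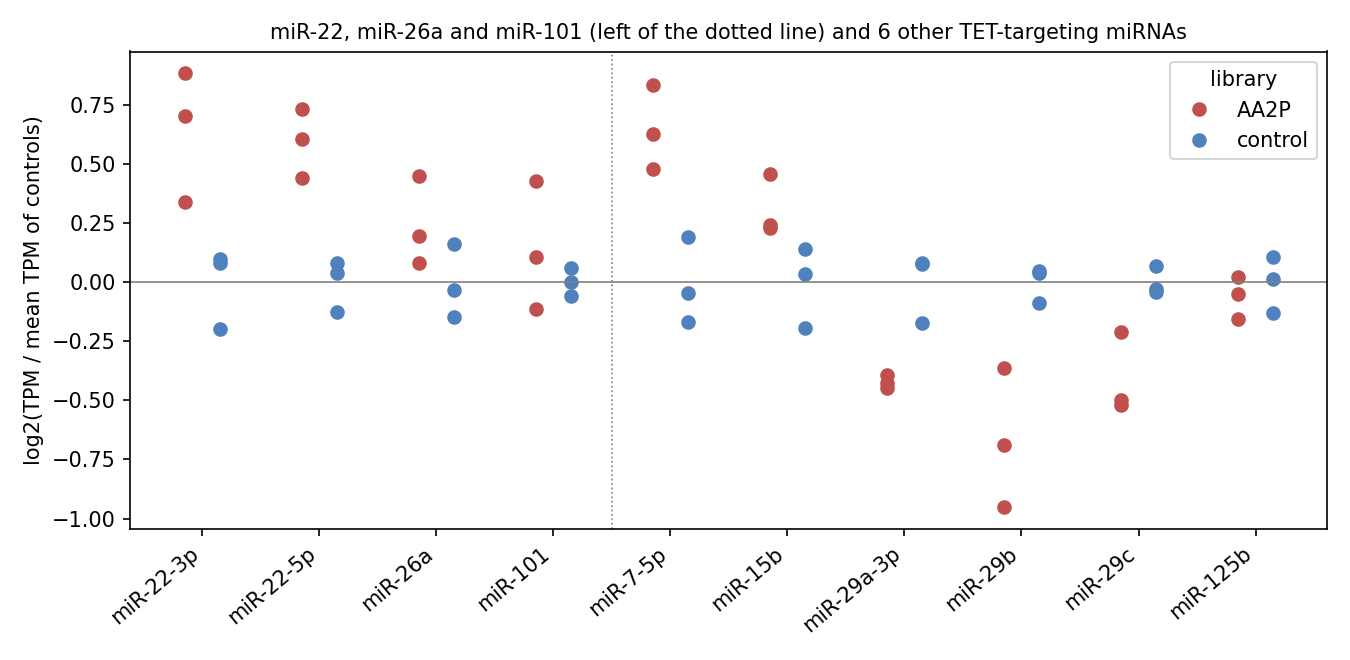
Log2 of TPM over the mean TPM of the control libraries (vertical axis) for miR-22-3p, miR-22-5p, miR-26a and miR-101, left of the dotted line, and for 6 other TET-targeting miRNAs, right of it; each point is 1 library, AA2P left of control. Both arms of miR-22, miR-7-5p and miR-15b lie higher in all AA2P libraries. miR-29a-3p, miR-29b and miR-29c lie lower, and miR-26a, miR-101 and miR-125b overlap between the groups.

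The list of EZH2-targeting miRNAs, which holds miR-26a and miR-101, showed no call. Of 7 names, 6 were listed and 3 tested, miR-26a, miR-26b-5p and miR-101, with 0 higher and 0 lower by limma. Their median log2 fold change was 0.25, as for all tested entries. Of all tested entries, 19.9% were called higher and 4.85% lower, so 0 calls among 3 say little about the list. miR-26b-5p came nearest to a call (limma, unadjusted p = 0.0153, adjusted p = 0.0577). Those listed but not tested were close to absent. miR-138 stood at 0.37 to 0.53 TPM in AA2P and 0.19 to 0.23 TPM in control libraries, miR-214-3p at no more than 0.04 TPM in either group, and miR-217 was listed at 0 in all but control replicate 1, at 0.15 TPM. The floor that a count of 0 allows was 0.0834 to 0.116 TPM. Among these 6, miR-26a, miR-101 and miR-26b-5p therefore made up nearly all of the TPM.

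The known miRNAs whose profiles lay nearest to each member were found by the root mean square difference of centred log2(TPM + 1) values over the 6 libraries. The search covered 259 known miRNAs tested, with the members themselves and miR-26b-5p left out. For miR-22-3p the nearest of these were miR-30e-3p (0.0925), miR-424-3p (0.111) and miR-30c-1-3p (0.132). For miR-22-5p they were miR-30e-3p (0.0304), miR-30a-3p (0.0672) and miR-30c-3p (0.0675), all 3p arms of the miR-30 family. miR-30e-3p, nearest to both arms of miR-22, stood at 549, 525 and 446 TPM in AA2P replicates 1, 2 and 3, against 334, 353 and 311 TPM in control replicates 1, 2 and 3. The profiles nearest to miR-26a were those of miR-7857-3p (0.0480), miR-191 (0.0523) and miR-196b-5p (0.0587), and those nearest to miR-101 were miR-130b-3p (0.0534), miR-455-3p (0.0588) and miR-193a-3p (0.0623). None of these 6 was called by limma (adjusted p = 0.120 to 0.615), while those named for miR-22 all were (0.00427 to 0.0265). Of all tested entries, 24.7% were called. The profiles were chosen by nearness over these same libraries, so calls like those of the member follow from the choice. The median difference over the 259 miRNAs was 0.228 to 0.296, depending on the member.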

How the data were processed

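Small RNA from 3 AA2P and 3 control samples was sequenced in a single lane of an Illumina NovaSeq instrument, per the labels' protocols. The values are TPM, as deposited by the authors in 1 table. Per the submitters' processing notes, Bowtie was among the tools. The genome build, the miRBase release and how shared reads were handled: not given in the sources used here. Depth was read from the steps between values under 5 TPM, each of which was within 0.0051 TPM of some whole read count. Floors cover counting error only: without molecular identifiers, reads do not stand for independent molecules. Members were matched by name; no miRNA sequences were used here.

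The 433 entries that reached 1 TPM in 3 or more libraries were tested by limma 3.58.1 in R 4.3.3 on log2(TPM + 1), with a mean-variance trend, two-sided, adjusted by Benjamini-Hochberg over all of them, with calls under 0.05; fold changes on this scale understate those of low entries. Arm ratios were fitted by limma, without a trend, over hairpins with both arms at a mean of at least 10 TPM. Single values were also compared by two-sided exact permutation tests (scipy 1.17.1). Trimmed-mean scaling was computed on the TPM without weights. On simulated data 451 entries were tested, of which 198 changed 2-fold. Of these 198, limma recovered 196 with the right sign, and it made 23 false calls among the unchanged rest. The median log2 fold change was 0.75 for entries raised, -1.04 for those lowered and -0.15 for those unchanged. Only 2-fold changes were simulated, so recovery at the members' ratios of means, 1.12 to 1.58, was not tested. The counts of recovered entries and of false calls hold for the simulated data only. Whether they carry over to the deposited libraries was not tested. There the dominant entry took 37.0 to 44.1% of the TPM with AA2P and 51.3 to 53.0% in controls. The coefficient of variation of miR-22-3p was 18.6% in AA2P libraries. The rule for named miRNAs took the members, the listed miRNAs, the neighbours in level and the 3 nearest profiles to each member; the predicted entries next to miR-22-3p in level are not printed. Members and lists were chosen with earlier results of these data known, and the marker lists (muscle and myoid, blood and endothelium, germ cells) likewise. Alternatives were other pseudocounts, filters and scalings, known miRNAs only, no trend, a replicate block and leaving out each library.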

Additional observations from a re-analysis of the deposited data

How the results depend on the processing

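Of 18 alternatives, the miR-22-3p call ended in 11 and the miR-22-5p call in 6, always with the same direction. The log2 fold change of miR-22-3p was 0.37 with trimmed-mean scaling, 0.38 with median-of-ratios scaling, 0.39 with quantile normalization, 0.35 with totals without miR-21-5p and 0.45 with totals without the 10 most abundant entries. With no filter on low values it was 0.65, with more entries tested (limma, adjusted p = 0.0946). Leaving out 1 library gave 0.53 to 0.80, with fewer samples. For miR-22-5p the values were 0.30, 0.31, 0.27 and 0.29 under the first 4 of these scalings, 0.58 with no filter (limma, adjusted p = 0.0609), and 0.51 to 0.65 with 1 library left out. miR-26a turned to -0.034, -0.023, -0.23 and -0.047 under trimmed-mean, median-of-ratios, quantile and miR-21-5p-free scaling. miR-101 turned to -0.14, -0.13, -0.18 and -0.15 under the same scalings and to -0.054 without the 10 most abundant entries; with 1 library left out it ranged from -0.0020 to 0.27. All of these scalings but quantile normalization divide a library by 1 factor; the cause of the differences was not tested.

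Of the 4 entries, 2 were called higher as deposited, 0 with no filter and under trimmed-mean, median-of-ratios, quantile and miR-21-5p-free scaling, 1 with the 10 most abundant left out of totals, and 0 to 2 with 1 library left out. None was called lower by limma in any alternative; unadjusted, none was lower under 0.05 either. Of the other TET-targeting miRNAs, the count higher was 1 as deposited, 0 under all scalings but quantile normalization, 2 with known miRNAs only and 0 to 1 with 1 library left out. The count lower was 2 as deposited, 0 with no filter, 4 under trimmed-mean, median-of-ratios and miR-21-5p-free scaling, 1 with the replicate block and 0 to 2 with 1 library left out. Of the EZH2-targeting miRNAs, 1 was called higher with known miRNAs only and 0 otherwise. The arm ratio of miR-22 kept its direction without a call in all 10 alternatives (-0.15 to -0.018).

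The deviations of same-numbered libraries from their group means correlated at 0.29, 0.062 and 0.18, not all over 0.1, so they were not taken as pairs. With the replicate number as a block, both miR-22 calls held (limma, adjusted p = 0.0194 for miR-22-3p and 0.0386 for miR-22-5p), and miR-26a and miR-101 did not pass (0.266 and 0.433). The marker calls of miR-142-3p and miR-34c ended (limma, adjusted p = 0.0837 and 0.0645), as did the miR-29b call (0.0746). Over all entries 63 were called with the block, against 107 without it. Across the scalings the calls of all entries split differently: 86 higher and 21 lower as deposited, 48 and 50 with trimmed-mean or median-of-ratios scaling, 44 and 40 with quantile normalization, 39 and 43 without miR-21-5p, and 55 and 36 without the 10 most abundant entries. With no filter the count was 57, without control replicate 3 it was 62.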
